A study of Mus musculus with 4 samples.

Results

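115 genes were low in the E18.5 wild type urogenital sinus (UGS) and at similar levels in the 3 other libraries of the study. They were chosen from the deposited FPKM values (a read number divided by the length of the transcript and by the reads mapped in the library) of 25819 gene rows. A gene was taken when it had at least 40 FPKM in each of the other 3 libraries and its E18.5 wild type value was at most 0.5 of the lowest of these. Rows whose symbol begins with *Rpl*, *Rps*, *Mrp*, *Nduf*, *Cox*, *Atp5* or *Uqcr* (most genes of the ribosomes and respiratory complexes), with *Mir*, *Snor* or *Rnu* (small RNA genes), or with *Gm* or *LOC* (many of the unnamed gene models) were left out. With these names left out, 1260 rows stood at the floor of 40 FPKM, so the 115 genes were 9.13% of the rows that could be chosen.

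Whole UGS of male mouse embryos was used for RNA-Seq, from embryos that were wild type or homozygous for a GFP knock-in that inactivates *Tbx18* (*Tbx18* GFP/GFP), at E16.5 and E18.5. Wild type embryos were littermates of the mutants, on a B6C3-F1 hybrid background. The RNA of 3 embryos was pooled for each of the 4 libraries, with 1 library per genotype and stage. There is therefore no replicate error, no test was run, and a difference of genotype and stage cannot be told apart from a difference of 1 library. The tissue was neither sorted nor dissected into its layers, so that fewer cells of a type and less RNA per cell cannot be told apart either. The mutant lacks *Tbx18* in every cell that would use it, from the start of development. The *Tbx18* row itself held 3.47, 2.504, 3.16 and 2.93 FPKM, given for wild type and then mutant at E16.5, followed by wild type and then mutant at E18.5. The mutant libraries were within 1.5-fold of the wild type of the same stage, and which part of the transcript the allele leaves is not given in the sources used here, so this row does not check the genotypes.

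The UGS is the embryonic tube of epithelium and surrounding mesenchyme from which the prostate buds. *Tbx18*, a T-box transcription factor, acts in the mesenchyme, where it is needed for smooth muscle to form. The genes described here include many that every cell uses, among them subunits of the proteasome, which degrades proteins tagged with ubiquitin, carriers and import factors of mitochondria, coat proteins of transport vesicles, and ferritin and peroxiredoxins, which store iron and remove peroxide. They also include the haemoglobin genes of red blood cells.

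From the FPKM worth of single reads, the libraries held about 64000000 (wild type) and 55700000 (mutant) mapped reads at E16.5 and about 29000000 (wild type) and 52400000 (mutant) at E18.5. The library that set the choice was thus the shallowest. Between 220 (*1810027O10Rik*) and 64046 reads (*Hba-a1*) stood behind the E18.5 wild type values of the 113 genes with a known length, with a median of 1062, so counting error was small beside the differences described. Epithelial and mesenchymal markers of the UGS were present in all 4 libraries: the 11 epithelial markers summed to 507 to 741 FPKM and 10 mesenchymal and smooth muscle markers to 1023 to 3594 FPKM, and none of them was at 0.

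Sequences that carry known control elements of the genes discussed are shown first. *Ftl1*, the light chain of the iron store ferritin, and *Alas2*, the enzyme that begins haem synthesis in red cell precursors, were both among the genes chosen, and *Fth1*, the ferritin heavy chain, was not. Their messages begin with an iron-responsive element, a hairpin bound by iron regulatory proteins. The loop letters searched, CAGTG followed by A, C or T, are in capitals, within 28 bases of each 5′ UTR taken from the GENCODE transcripts of GRCm38.
Ftl1: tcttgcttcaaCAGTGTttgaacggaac
Alas2: tggttcgtcctCAGTGCagggcaacagg
Fth1: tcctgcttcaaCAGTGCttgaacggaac
The *Ftl1* stretch lies on the minus strand of chromosome 7 at 45459779 to 45459806, that of *Fth1* on the plus strand of chromosome 19 at 9982733 to 9982760, and that of *Alas2* on the plus strand of chromosome X, where it runs across an intron from 150547459 to 150552149. The same kind of element was thus found in 2 of the genes chosen and in 1 that was not.

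*Oaz1* and *Oaz2*, the antizymes that mark ornithine decarboxylase for degradation and so limit polyamine synthesis, were also chosen. Each is read through a stop codon by a shift of the ribosome to the next frame. The letters TCCTGAT, in capitals, hold that stop within 31 bases of coding sequence in the GENCODE transcripts, on the plus strand of chromosome 10 at 80828280 to 80828310 for *Oaz1* and of chromosome 9 at 65686257 to 65686287 for *Oaz2*.
Oaz1: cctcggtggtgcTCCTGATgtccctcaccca
Oaz2: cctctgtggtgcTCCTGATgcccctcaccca
*Oaz1* stood at 152, 173, 55.0 and 157 FPKM in wild type and mutant at E16.5 and then in wild type and mutant at E18.5, the order used for every set of 4 values from here on, in which the third value is the E18.5 wild type. *Oaz2* stood at 66.7, 70.2, 25.2 and 65.0 FPKM. Both antizymes were at a similar level in 3 libraries and at less than 0.4 of the lowest of them in E18.5 wild type; they are named here after their values were seen.

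The E18.5 wild type values of the 115 genes lay between 0.189 (*Hbb-b1*) and 0.496 (*Gpx4*) of the lowest other library, with a median of 0.416. Their median level was 72.3 FPKM in wild type and 74.8 in mutant UGS at E16.5, and 29.3 in wild type and 73.4 in mutant UGS at E18.5. 50 genes were at least 2.5-fold below the lowest other library, 23 at least 3-fold, 5 at least 4-fold and 1, *Hbb-b1*, at least 5-fold. These values were used to choose the genes and are given as a description only.

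**Figure D1:**
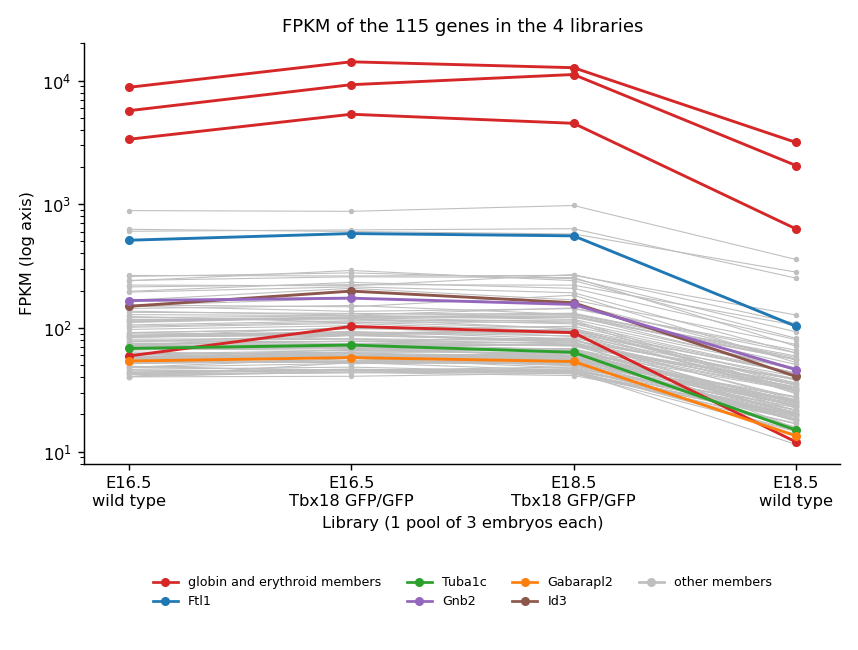
FPKM of the 115 genes (log axis) in the 4 libraries, 1 line per gene, with the 4 globin and erythroid genes and 5 others in colour. The lines run nearly level over the first 3 libraries shown and drop in E18.5 wild type, where the median was 29.3 FPKM against 72.3 to 74.8 in the others.

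Genes near the limits of the choice did not stand apart from those outside it. Just inside the limit on the ratio were *Gpx4* (0.496), *Slc25a4* (0.496), *Slc25a5* (0.494), *Eef2* (0.492) and *ENSMUSG00000074747* (0.491), and just outside were *Fkbp10* (0.5001), *Tubb2a* (0.501), *Gstp1* (0.501), *Pafah1b3* (0.502) and *Gsn* (0.503). The lowest other library held 40.1 FPKM for *Tmem14c*, 40.3 for *2510006D16Rik*, 40.4 for *Pkdcc*, 40.4 for *Echs1* and 41.1 for *Adprh*, just inside the floor. *Ptk7* (39.6 FPKM), *Rab34* (39.2), *2410015M20Rik* (39.2), *Phgdh* (39.1) and *Ap1s1* (39.0) met the ratio and missed the floor.

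**Figure D2:**
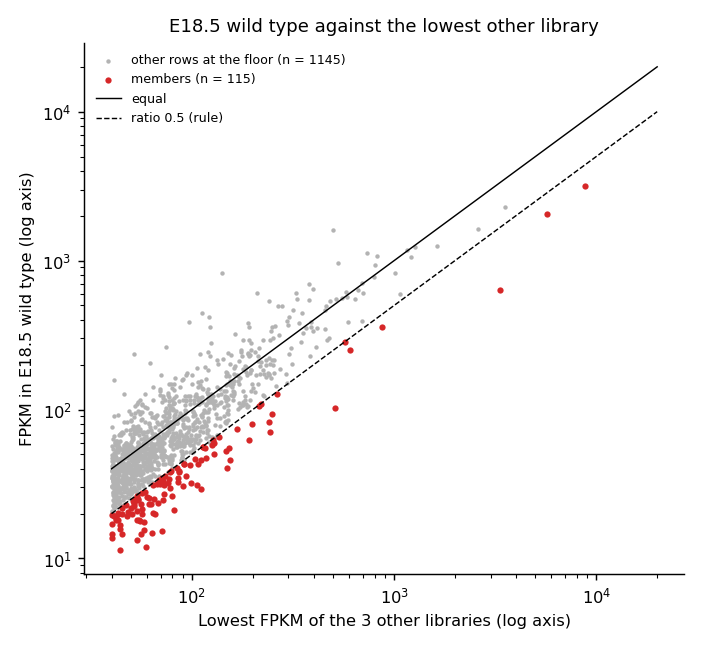
FPKM in E18.5 wild type against the lowest FPKM of the 3 other libraries (both log axes) for the 1260 rows at the floor, with the 115 genes in red. The genes chosen are the lower edge of a continuous cloud, with no gap at the dashed line of the rule, and 862 of the 1260 rows had a ratio under 1.

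The whole E18.5 wild type library was low for rows of this level. Over the 1260 rows the median log2 ratio of E18.5 wild type was −0.31 to E16.5 wild type, −0.34 to E16.5 *Tbx18* GFP/GFP and −0.36 to E18.5 *Tbx18* GFP/GFP. For the 115 genes these medians were −1.32, −1.44 and −1.34. Of all rows at the floor, 11.5% were at least 2-fold lower in E18.5 wild type than in E16.5 wild type, 11.9% than in E16.5 *Tbx18* GFP/GFP and 12.8% than in E18.5 *Tbx18* GFP/GFP, and by the rule all 115 genes were in each of these sets. The shift of the library over rows of at least 1 FPKM in all 4 libraries was 0.34 on the log2 scale when the median log2 ratio to E16.5 wild type was set to 0, and with that shift taken away 53 rows met the rule, 52 of them among the 115.

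What the rule did not ask is how alike the 3 other libraries were. The highest of these 3 values was a median of 1.10 times the lowest for the 115 genes, against 1.09 for the other 1145 rows at the floor. 99 of the 115 genes (86.1%) stayed within 1.2-fold over the 3 libraries, against 83.1% of the other rows. Because a gene that varied among the 3 could be low only against its own lowest value, the share within 1.2-fold is given as a description.

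At E16.5, 4 of the 115 genes differed by 1.5-fold or more between *Tbx18* GFP/GFP and wild type, against 1.43% of all rows at the floor. Between E18.5 *Tbx18* GFP/GFP and E16.5 wild type 2 genes did, against 3.02% of rows, and between the 2 mutant libraries none did, against 2.86% of rows. The 4 genes were *Hbb-b1*, *Hba-a1*, *Hba-a2* and *Alas2*, all higher in the E16.5 mutant, and the 2 were *Hba-a2* and *Alas2*, higher in the E18.5 mutant. No gene reached 2-fold in any of these 3 pairs. The median log2 ratio of the 115 genes was 0.07 for the E16.5 mutant over the E16.5 wild type, 0.03 for the E18.5 mutant over the E16.5 wild type and −0.06 for the E18.5 over the E16.5 mutant, beside 0.02, 0.01 and −0.01 over all rows at the floor. Equal library sums turned the first 2 of these medians to −0.03 and −0.10, and removing the trend on length and GC content turned the last to 0.03, so that no direction was read from them.

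All 4 rows of globin and erythroid genes that stood at the floor were among the 115, and the 3 globin rows held the highest levels, with the lowest ratio in *Hbb-b1*. *Hba-a1*, an alpha globin gene, had 8812, 14169, 3159 and 12700.3 FPKM. The second alpha globin gene, *Hba-a2*, had 5700.5, 9253, 2055 and 11186 FPKM. Both were lowest in E18.5 wild type and higher in the mutant than in the wild type at each stage, as the rule requires at E18.5, and *Hba-a1* was highest at E16.5 whereas *Hba-a2* was highest at E18.5. Their coding sequences are 99.8% identical over 429 bases, so reads of one could be counted for the other, and they lie 12005 bases apart on chromosome 11.

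*Hbb-b1*, the adult beta globin gene, stood at 3348, 5337, 632 and 4509 FPKM on chromosome 7 from 110961042 to 110962437 in the deposited positions, whose genome build is not given in the sources used here. *Alas2* stood at 59.2, 103, 11.95 and 91.5 FPKM. In both the E18.5 wild type value was apart from the other 3, and the E16.5 wild type value was the lowest of those 3. *LOC100503605*, a second beta globin row that its name kept out of the 115, had 2592, 4382, 733 and 4237 FPKM and the same order of libraries as *Hbb-b1*.

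The summed FPKM of the 5 erythroid markers was 17922, 28865, 5859 and 28489, and 4 of these 5 markers are members of the 115. None of the other 10 lists of cell type markers held a member. Endothelial markers summed to 69.5, 76.4, 72.4 and 71.7 FPKM, with no library apart. Markers of neurons and glia summed to 290, 229, 145 and 237 FPKM and were lowest in E18.5 wild type. Most of that sum came from *Prph* and *Tubb3*, at 0.555 and 0.556 of their lowest other values, while *Elavl4* and *Sox10* were at 1.59 and 1.16. Macrophage markers summed to 49.2, 58.5, 41.1 and 59.2 FPKM, with 4 of 6 lowest in E18.5 wild type and *Cd68* and *C1qb* at 2.05 and 1.14 of their lowest other values. Skeletal muscle markers summed to 611, 252, 289 and 698 FPKM, and liver cell markers stayed at or under 15.4 FPKM in every library. What red blood cells in the tissue contributed to genes outside the erythroid list was not tested.

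Iron, redox and metal genes gave 7 of their 31 rows at the floor. *Ftl1* had 511, 579, 103 and 555 FPKM. *Fth1*, its partner chain in the same protein shell, had 459, 509.9, 498 and 493 FPKM. *Ftl1* was thus lowest in E18.5 wild type, by 4.97-fold against the lowest other library, while *Fth1* stood within 1.5-fold over all 4 libraries. The row *LOC100502709*, which lies inside the *Ftl1* row, had 532, 651, 211 and 657 FPKM and was low in the same library, and *Ftl2*, a processed copy that is 98.7% identical to the *Ftl1* coding sequence, had 72.4, 86.6, 31.0 and 79.0 FPKM.

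Of the peroxiredoxins, which break down hydrogen peroxide, 3 of 6 were chosen. *Prdx2*, abundant in red cells, had 260.5, 278, 92.8 and 249.9 FPKM. *Prdx4*, of the endoplasmic reticulum, had 77.5, 87.0, 29.9 and 94.4 FPKM and *Prdx5* had 86.0, 88.6, 38.5 and 95.2 FPKM. *Prdx1*, *Prdx3* and *Prdx6* were also lowest in E18.5 wild type, at 0.604, 0.558 and 0.515 of the lowest other library. *Prdx3* and *Prdx6* were also under the floor and could not be chosen. The family was thus divided by the ratio and the floor rather than by direction. *Akr1a4*, an aldehyde reductase, had 214, 224, 105 and 221 FPKM, *Gpx4*, which reduces lipid peroxides, had 113, 121, 55.9 and 129.8 FPKM, and *Atox1*, a copper carrier, was at 0.411 of its lowest other value.

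**Figure D3:**
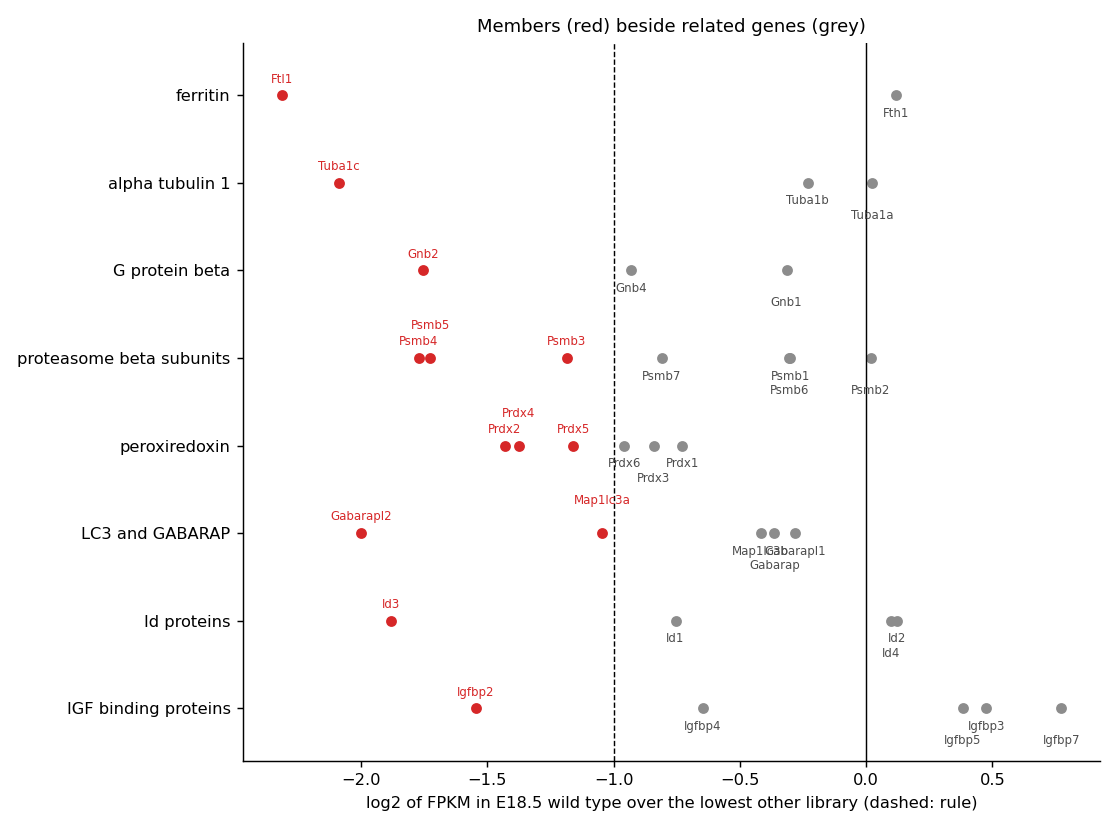
Log2 of the E18.5 wild type FPKM over the lowest other library for genes of 8 families, with the genes chosen in red and related genes in grey. Some of the related genes were under the floor. *Ftl1* and *Tuba1c* lie far to the left of *Fth1*, *Tuba1a* and *Tuba1b*, while the peroxiredoxins run in one series across the dashed line of the rule.

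Mitochondrial import and carrier genes gave the largest share of any list with more than 4 rows at the floor, 9 of 23, and the median ratio over those 23 rows was 0.572 against 0.832 over all rows at the floor. That count holds for the deposited scaling: with library sums made equal 0 rows of the list met the rule, and 1 did with the median log2 ratio set to 0 or with upper quartiles made equal. *Slc25a4* and *Slc25a5*, which exchange ADP and ATP across the inner membrane, had 222, 219, 108 and 269.8 FPKM and 136, 127, 62.7 and 145 FPKM. *Mtch1*, an outer membrane protein of the carrier family, had 121, 125, 47.5 and 117 FPKM, and *Chchd2*, a protein of the intermembrane space, had 114, 119.8, 55.7 and 122 FPKM. Each of these 4 was at 0.405 to 0.496 of its lowest other value. *Tomm22*, a receptor of the import pore, *Fis1*, a fission factor, *Phb*, a prohibitin of the inner membrane, *Romo1* and *Slc25a39* completed the list, at 0.428 to 0.483.

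3 of 25 rows of mitochondrial metabolism were chosen. *Cyc1*, the cytochrome c1 of respiratory complex III, had 60.5, 57.7, 15.4 and 62.9 FPKM, whereas *Cycs*, the cytochrome c that takes its electrons, had 22.5, 20.1, 25.1 and 24.1 FPKM. *Cyc1* was 3.74-fold below its lowest other library, and *Cycs*, which was under the floor and could not be chosen, was highest in E18.5 wild type. *Echs1*, a hydratase of fatty acid oxidation, had 40.4, 44.0, 14.5 and 42.6 FPKM, and *Etfb*, an electron carrier of the same pathway, had 54.1, 58.5, 24.9 and 59.9 FPKM. Among the genes that their names had kept out, 15 of 63 rows of *Nduf*, *Cox*, *Atp5* and *Uqcr* genes and 17 of 80 rows of *Rpl* and *Rps* genes met the same values. So did 44 of 169 rows with *Gm* or *LOC* names. With no name left out, 199 of 1594 rows at the floor met them (12.5%).

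In the glycolysis list, 2 of 13 rows were chosen, and both are enzymes of the pentose phosphate pathway. *Taldo1*, a transaldolase, had 71.3, 68.2, 23.6 and 68.0 FPKM, and *Pgls*, a lactonase, had 46.1, 48.1, 15.8 and 43.9 FPKM. None of the 11 other rows at the floor in that list was chosen. *Ddah2*, which the patterns had put with lipid genes and which is known for degrading methylated arginine, had 87.2, 93.4, 21.3 and 81.4 FPKM.

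The proteasome list gave 4 of 31 rows, and 3 of them are beta subunits of its core. *Psmb4* had 106, 114, 30.9 and 115 FPKM. *Psmb5*, which carries the chymotrypsin-like site, had 67.9, 65.7, 19.9 and 65.9 FPKM, and *Psmb3* had 87.1, 91.9, 37.9 and 86.1 FPKM. All 3 were lowest in E18.5 wild type, while of the beta subunits not chosen *Psmb7* was at 0.571 of its lowest other value, *Psmb6* at 0.809, *Psmb1* at 0.812 and *Psmb2* at 1.01. These 7 beta subunits thus spanned 0.293 to 1.01, and the 31 rows of the list 0.293 to 1.92. *Psmc5*, an ATPase of the cap, had 60.6, 62.7, 27.8 and 58.3 FPKM. *Mir686*, a row inside *Psmb5*, had 197, 740, 0.0034 and 792 FPKM.

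The ubiquitin list gave 4 of 34 rows. *Uchl1*, a deubiquitinase known from neurons, had 150.1, 136, 65.9 and 143 FPKM, and *Ube2s*, which extends ubiquitin chains in mitosis, had 117, 118, 43.2 and 108 FPKM. The ligases *Rnf187* and *Rnf10* had 84.2, 87.1, 26.1 and 79.8 FPKM and 74.7, 74.1, 31.8 and 66.9 FPKM. The E18.5 wild type values of these 4 genes were 0.327 to 0.485 of the lowest other value, with *Rnf187* the lowest.

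Chaperones gave 4 of 48 rows. *Ppia*, cyclophilin A, had 888, 876, 357 and 976 FPKM, the highest level outside the globins. *LOC100503444*, a row that overlaps it, had 1288, 1290.2, 943 and 1375 FPKM, and the sum of both rows in E18.5 wild type was 0.600 of the lowest other sum, above the limit of 0.5. *Pdia6*, a disulfide isomerase, had 116, 122, 55.3 and 124 FPKM, *Fkbp8* had 74.2, 77.6, 24.5 and 71.5 FPKM and *Cct7* had 72.3, 71.6, 33.1 and 72.5 FPKM. *Cct7* was the only row of the ring chaperonin to be chosen, but the rows of *Cct3* (0.532), *Cct4* (0.593) and *Cct5* (0.661) followed it closely, and only 1 of the 2 *Cct6a* rows was above its lowest other library (1.205).

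Of the splicing list 2 of 62 rows were chosen. *Snrpb*, an Sm protein of the spliceosome, had 111, 121, 29.3 and 111 FPKM, and *Hnrnpa0* had 143, 152, 50.6 and 129 FPKM. Of the partners of *Snrpb* in the Sm ring, *Snrpg* (0.542), *Snrpd2* (0.621) and *Snrpe* (0.746) were also lowest in E18.5 wild type, *Snrpf* was at 1.02 of its lowest other value, and *Snrpd1* (1.49) and *Snrpd3* (1.34) were highest in E18.5 wild type. Among relatives of *Hnrnpa0*, *Hnrnpa2b1* was at 0.830, *Hnrnpa1* at 0.849 and *Hnrnpa3* at 1.44. 2 of 32 translation factors were chosen, *Eef2*, an elongation factor, with 626, 602, 283 and 575 FPKM, and *Eif5a* with 265, 263, 127 and 266 FPKM. *Lars2*, which loads leucine on mitochondrial tRNA and was 1 of 4 tRNA synthetase rows, had 197, 233, 80.3 and 209 FPKM. *Polr1d*, a shared subunit of RNA polymerases I and III and 1 of 11 rows of its list, had 63.9, 59.8, 25.9 and 62.0 FPKM.

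Vesicle transport gave 7 of 51 rows. *Gabarapl2*, an ATG8 protein of the autophagosome, had 53.9, 57.5, 13.4 and 53.5 FPKM on chromosome 8 from 114464618 to 114476480 in the deposited positions. *Map1lc3a*, another ATG8 protein, was placed with microtubules and had 67.9, 68.5, 31.2 and 64.4 FPKM. Their relatives *Gabarap*, *Gabarapl1* and *Map1lc3b* were at 0.777, 0.824 and 0.749 of their lowest other values and were not chosen. *Gabarapl1* was also under the floor. The other vesicle genes were *Rabac1* (0.260), *Sec13* of the COPII coat (0.377), *Arf5* (0.384), *Rab1b* (0.418), *Ap2s1* of the clathrin adaptor (0.482) and *Cope* of the COPI coat (0.491). *Sqstm1*, an autophagy receptor that was in no list, stood at 0.486.

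Among signalling proteins 7 of 50 rows were chosen. *Gnb2*, a beta subunit of heterotrimeric G proteins, had 166, 174, 45.9 and 155 FPKM, and *Gnb1*, a related subunit, had 138, 136, 107 and 133 FPKM. A further relative under the floor, *Gnb4*, had 16.8, 17.6, 8.82 and 18.3 FPKM, at 0.524 of its lowest other value. The transcript GC content of *Gnb4*, 45.4%, was below that of *Gnb2* (61.2%) and *Gnb1* (48.1%). *Gnb2* was 3.37-fold below its lowest other library, and *Gnb1* was within 1.5-fold over the 4 libraries. The first 90 coding bases of both are shown, from the GENCODE transcripts of equal coding length, because they are a pair that differs in base composition, with G or C at the last position of each codon in capitals.
Gnb2: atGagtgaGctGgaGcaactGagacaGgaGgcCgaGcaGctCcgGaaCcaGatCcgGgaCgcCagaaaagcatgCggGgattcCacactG
Gnb1: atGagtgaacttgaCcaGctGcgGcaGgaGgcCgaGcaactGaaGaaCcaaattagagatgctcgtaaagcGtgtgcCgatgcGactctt
Of these 30 codons, 22 in *Gnb2* and 15 in *Gnb1* end in G or C, and 19 of the 26 differences between the stretches are at last positions. Over the whole coding sequence 72.1% of *Gnb2* codons and 55.7% of *Gnb1* codons end in G or C.

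The other signalling genes were *Gnb2l1*, a ribosome-bound scaffold with 604, 619, 252 and 634 FPKM, *Pebp1*, an inhibitor of the Raf kinase with 195, 215, 62.7 and 192 FPKM, *Ppp1r14b*, an inhibitor of protein phosphatases with 124, 111, 32.0 and 99.1 FPKM, *Ppp2r4*, an activator of a phosphatase with 43.9, 46.1, 11.4 and 44.4 FPKM, *Mapkapk2* (0.430) and *Ppp4c* (0.435). *Ppp1r14b* was lower in both mutant libraries than in E16.5 wild type, with log2 ratios of −0.15 at E16.5 and −0.32 at E18.5, the latter being the lowest of the 115 genes for that pair.

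**Figure D4:**
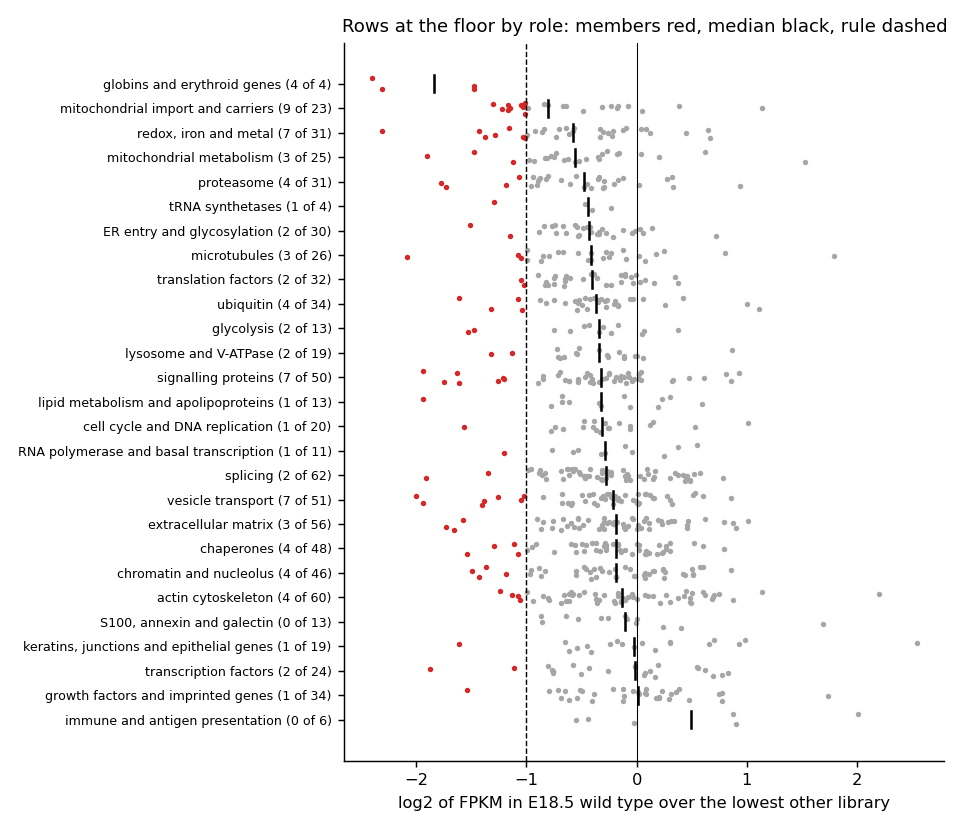
Log2 of the E18.5 wild type FPKM over the lowest other library for rows at the floor in each of 27 lists by role, with the genes chosen in red and list medians as black bars. Red points appear in 25 lists, and the median bar is left of 0 for all lists but growth factors and immune genes.

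In the cytoskeleton, 3 of 26 microtubule rows and 4 of 60 actin rows were chosen. *Tuba1c*, an alpha tubulin on chromosome 15 from 98860322 to 98868536 in the deposited positions, had 68.2, 72.6, 14.9 and 63.4 FPKM. *Tuba1a* had 631, 552, 561 and 585 FPKM and *Tuba1b* had 422, 434, 355 and 417 FPKM. *Tuba1c* alone was low, but its row overlaps *LOC100503555*, which had 286, 281, 412 and 274 FPKM and was highest in E18.5 wild type. The sum of the 2 rows was 354, 353, 427 and 337 FPKM, also highest in E18.5 wild type, so the low value holds for the *Tuba1c* row and not for the locus. The coding sequences of *Tuba1c* and *Tuba1a* are 97.2% identical and those of *Tuba1c* and *Tuba1b* 98.0%, so reads of one could be counted for another. *Tppp3*, a tubulin-binding protein, had 62.8, 51.3, 24.4 and 55.4 FPKM and the lowest log2 ratio of the 115 genes between the E16.5 mutant and wild type, −0.29. The actin genes were *Tagln2* with 128, 126, 57.5 and 131 FPKM, *Rhoc* with 91.0, 98.4, 43.2 and 94.7 FPKM, *Fscn1*, a bundling protein, with 90.8, 88.2, 32.2 and 76.2 FPKM, and *Arpc1a* with 53.4, 52.5, 25.2 and 54.9 FPKM. Of the relatives of *Rhoc*, *Rhob* was at 0.668 of its lowest other value and *Rhoa* at 1.30.

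Transcription factors gave 2 of 24 rows. *Id3*, an inhibitor of helix-loop-helix transcription factors, had 149, 198, 40.5 and 159.6 FPKM, and *Jund*, of the AP-1 factors, had 57.5, 60.2, 23.97 and 51.8 FPKM. *Id1* was at 0.593 of its lowest other value, *Id4*, which was under the floor, at 1.07 and *Id2* at 1.09, so of the 4 Id genes *Id3* alone met the rule. Of the 56 matrix rows 3 were chosen: *Nbl1*, a BMP antagonist with 71.0, 69.3, 17.5 and 58.2 FPKM, *Emilin1*, an elastic fibre protein with 66.1, 71.5, 20.3 and 64.2 FPKM, and *Col16a1*, a collagen with 54.5, 57.4, 18.3 and 58.8 FPKM. *Igfbp2*, the only one of 34 rows of growth factor and imprinted genes, had 240.3, 291, 82.4 and 241 FPKM. *Igfbp4* was also lowest in E18.5 wild type, at 0.639 of its lowest other value, while *Igfbp3*, *Igfbp5* and *Igfbp7* were at 1.39, 1.30 and 1.71. *Wfdc2*, a secreted protein of duct epithelium and 1 of 19 epithelial rows, had 49.0, 44.8, 14.7 and 45.3 FPKM. *Ccnd3*, cyclin D3, 1 of 20 cell cycle rows, had 97.1, 104, 30.6 and 90.4 FPKM.

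The chromatin list gave 4 of 46 rows. The histone variant *H2afz* had 153, 148, 52.4 and 184 FPKM, and *H2afx*, which marks broken DNA, had 66.7, 74.8, 23.3 and 62.8 FPKM. Of the other variants, *H2afv* (0.717), which was under the floor, and *H2afy* (0.765) were lowest in E18.5 wild type and *H2afy2* was at 1.43 of its lowest other value. *Cbx6*, a Polycomb protein, had 56.4, 61.8, 20.8 and 53.6 FPKM. *Hmgn4*, listed in RefSeq as a copy of *Hmgn2*, had 167, 209, 73.5 and 168 FPKM. The endoplasmic reticulum list gave 2 of 30 rows, *Sec61b* of the translocon with 103, 111, 46.3 and 111 FPKM and *Tmed9* with 56.8, 63.7, 19.9 and 63.0 FPKM. The list of the lysosome and the proton pump gave 2 of 19 rows, both of the pump. *Atp6v1f* had 69.1, 74.8, 31.5 and 71.4 FPKM and *Atp6v0b* had 47.9, 51.6, 19.2 and 51.6 FPKM. 14 subunit rows of the pump were compared, with rows of very low level left out. Several of the 14 were under the floor, among them *Atp6v0e2*, which met the ratio (0.359).

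34 members were in no list by role. *1810027O10Rik*, listed in RefSeq as *Tmem256*, had 71.1, 74.4, 15.4 and 77.0 FPKM. *Nme2*, a nucleoside diphosphate kinase, had 242, 259, 71.1 and 255 FPKM, while *Nme1* and *Nme4* were at 0.575 and 0.671 of their lowest other values. Its relative *Nme3* met the ratio (0.373) and missed the floor, with 15.1, 18.9, 5.54 and 14.9 FPKM, and *Nme4* missed the floor as well. Both *1810027O10Rik* and *Nme2* were among the 15 lowest ratios. *Pkdcc*, a secreted tyrosine kinase, had 40.4, 52.4, 13.7 and 52.4 FPKM and was higher in both mutant libraries than in E16.5 wild type, with log2 ratios of 0.38 at both stages, the highest outside the erythroid genes for the E18.5 mutant. *Mbd3* of the NuRD complex had 58.3, 56.9, 22.9 and 47.3 FPKM and *Hn1* had 117, 118, 42.5 and 98.2 FPKM, with log2 ratios of −0.30 and −0.25 for the E18.5 mutant over E16.5 wild type. The rest of the 34 were *Aamp*, *Adipor1*, *Adprh*, *Bloc1s1*, *Ctdsp1*, *Ddb1*, *Ftl2*, *Gipc1*, *Gps1*, *Itm2c*, *Mfge8*, *Myeov2*, *Oaz1*, *Oaz2*, *Rnh1*, *Sin3b*, *Slc39a7*, *Sqstm1*, *Tax1bp3*, *Tmem147*, *Tmem14c*, *Tsen34*, *Wdr6*, *2410006H16Rik*, *2510006D16Rik*, *2700094K13Rik*, *2900010M23Rik*, *6720456B07Rik* and *ENSMUSG00000074747*, with ratios of 0.321 (*Tsen34*) to 0.491.

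Read together by role, the 115 genes were spread over 25 of 27 lists, with 81 genes in a list. S100, annexin and galectin genes (0 of 13 rows) and immune genes (0 of 6) gave none. Beside the 9.13% of all rows at the floor, the globins and erythroid genes had the highest share at 100% (4 of 4 rows). Next came mitochondrial import and carriers at 39.1% (9 of 23) and tRNA synthetases at 25%, which was 1 row of 4. Redox, iron and metal genes had 22.6% (7 of 31) and glycolysis 15.4% (2 of 13). Of the lists with a member, growth factors and imprinted genes (2.94%), splicing (3.23%) and cell cycle and DNA replication (5%) had the lowest shares. The order depends on the scaling. With library sums made equal, the median log2 ratio set to 0 or upper quartiles made equal, the rows that met the rule fell from 115 to 43, 53 and 55. All 4 erythroid rows still met the rule in each case, and glycolysis kept its count of 2 and the extracellular matrix its count of 3. Mitochondrial import and carriers fell from 9 to 0, 1 and 1. In each case redox, iron and metal genes fell from 7 to 3, signalling proteins from 7 to 4 and actin genes from 4 to 0. Of the scalings, only equal upper quartiles kept the tRNA synthetase row within the rule. These shares rest on the values that chose the genes, and no difference between lists was tested.

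Base composition, which the rule did not use, differed between the 115 genes and the other rows at the floor. Transcript GC content from GENCODE had a median of 56.5% for 113 of the genes, against 50.2% for 1136 other rows at the floor, and the quartiles were 53.7% and 58.7% against 45.3% and 54.2%. In 10 bins of rows, from the lowest to the highest GC content, there were 0, 0, 2, 3, 6, 9, 15, 14, 30 and 34 members. Of 625 rows in the 5 lower bins 1.76% were members and of 624 rows in the 5 upper bins 16.3% were. In 23 of the 24 lists that held both members and other rows, the members had the higher median GC content.

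**Figure D5:**
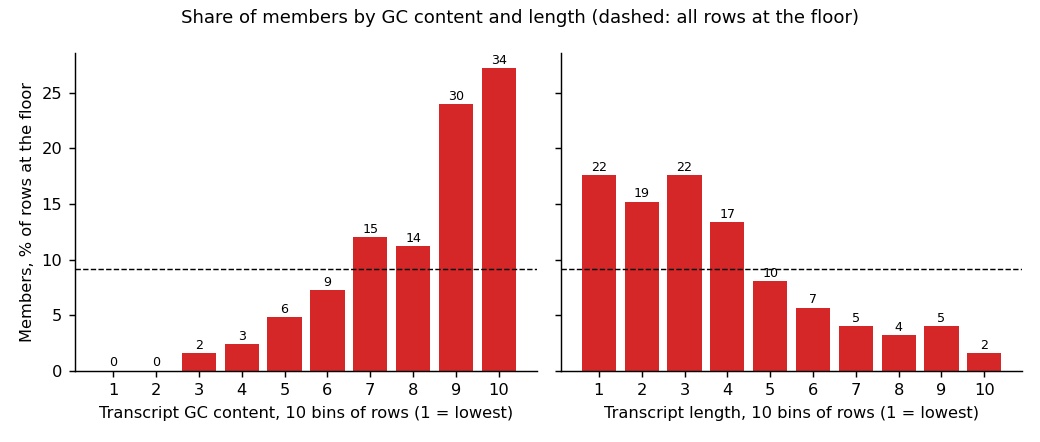
Share of rows at the floor that are members (percent) in 10 bins of transcript GC content and of transcript length, with the number of members above each bar and the 9.13% of all rows dashed. The 2 highest bins of GC content hold 30 and 34 members, and the shortest bin of length holds 22 against 2 in the longest.

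The members were also short. Their median transcript length was 1396 bases against 2193, with 6 exons against 8, and a 3′ UTR of 346 bases against 716. Of the 380 rows with GC content at or above the median of 50.9% and a length below the median of 2108 bases, 80 (21.1%) were members, and of the 381 rows low in GC and long, 1 (0.262%) was. The GC difference was present at the last codon position, with medians of 67.5% against 58.9%, and in the 3′ UTR, with 50.6% against 43.2%. *Gabarapl2* (45.3% GC) and *Tomm22* (45.8%) were the members lowest in GC content, and *Jund* (67.1%) the highest.

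Over all 1249 rows at the floor with a known sequence, the log2 ratio of E18.5 wild type to each other library went down with GC content, with Spearman correlations of −0.40 and −0.39 against wild type and mutant at E16.5 and −0.38 against the E18.5 mutant. Between the other libraries the correlations were 0.12, −0.10 and −0.19. These are correlations across genes, which are not independent, and the first 3 share the E18.5 wild type library. After a smooth trend of the ratio on length and GC content had been taken away, the median ratio of the members was 0.678 and that of rows at the floor 1.08. As a description only, since the members were chosen for low ratios in the same values, 112 of 113 members were under 1. *Hbb-b1*, the member with the lowest ratio, and *ENSMUSG00000074747* matched no transcript sequence and could not enter this step. 14 genes then met the rule, all of them members: *Gabarapl2* (0.299), *Alas2* (0.3004), *1810027O10Rik* (0.344), *Ftl1* (0.370), *Tuba1c* (0.376), *Psmb4* (0.427), *Ppp2r4* (0.444), *Id3* (0.455), *Cyc1* (0.459), *H2afz* (0.463), *Snrpb* (0.482), *Ddah2* (0.486), *Echs1* (0.491) and *Prdx2* (0.498). The trend was itself fitted to these libraries, and what part of it belongs to the library and what part to the tissue was not tested.

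Promoters differed little. For the 101 members with a RefSeq promoter (250 bases before to 50 after the start, GRCm38.p6), the median GC content was 61.0%, against 62.0% for 899 other genes at the floor and 52.7% for all 27025 promoters. The GC box GGGCGG, searched on both strands, was found in 71.3% of member promoters, 71.2% of the others at the floor and 35.9% of all. The ETS core CCGGAAG was in 18.8%, 19.6% and 9.12%, and the E-box CACGTG in 9.90%, 11.9% and 7.24%. CCAAT was in 32.7%, 42.4% and 37.9%, and TATAAA in 12.9%, 9.45% and 14.2%. The AP-1 site TGANTCA, with N for any base, was in 2.97%, 5.01% and 7.93%. No difference in these shares was tested. The 120 bases before the start of *Gabarapl2* (plus strand, chr8:111940583-111940702) and *Id3* (plus strand, chr4:136143702-136143821) show the GC boxes, in capitals in either direction, of 2 genes that met the rule with and without the trend. In the same 120 bases of *Ftl1*, which also met it both ways, and of *Gnb2* these letters were not found.
Gabarapl2: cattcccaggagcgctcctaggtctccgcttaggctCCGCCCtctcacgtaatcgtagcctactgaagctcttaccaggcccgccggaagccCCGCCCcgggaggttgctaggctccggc
Id3: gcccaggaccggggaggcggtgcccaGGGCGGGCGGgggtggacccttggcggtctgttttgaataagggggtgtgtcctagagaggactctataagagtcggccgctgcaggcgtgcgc
A match is a run of letters and not a site shown to be bound.

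Beside the 9.13% of all rows at the floor, 18 of 127 rows on chromosome 11 were members (14.2%), 13 of 102 on chromosome 7 (12.7%), 11 of 72 on chromosome 5 (15.3%) and 10 of 63 on chromosome 8 (15.9%). At the other end, 0 of 28 rows on chromosome 18 and 1 of 44 on each of chromosomes 12 and 14 (2.27%) were members. On chromosome 16 it was 1 of 26 rows (3.85%) and on chromosome 3 it was 3 of 64 (4.69%). No difference between chromosomes was tested. 3 pairs of members lay within 100 kb of each other, the alpha globin genes, *1810027O10Rik* with *Eif5a* and *Prdx5* with *Ppp1r14b*.

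Overlapping rows bear on 15 members, since the counting could move reads between such rows. For 12 of them the sum with the overlapping row of at least 1 FPKM was still at most 0.5 of the lowest other sum. *Tmed9* (0.588), *Ppia* (0.600) and *Tuba1c* (1.27) were above that limit. For *Ftl1* the ratio of the sum was 0.301, for *H2afz* 0.354 and for *Eef2* 0.423.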

How the data were processed

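Whole UGS RNA of 3 male embryos per pool was sequenced as 1 library for each genotype and stage. Per the submitters' processing notes, the authors used CASAVA 1.8.2, Trimmomatic 0.30, TopHat2 2.1.0 and Cufflinks 2.2.1 on single-end stranded reads. The deposited values are FPKM from the authors' Cufflinks run, used without rescaling or pseudocount. The genome build is not given in the sources used here. Starts are counted from 1. The members and the lists were chosen with earlier results of these data known, and the 24 families after their values were seen. Named genes were members: the 4 of highest mean in each list by role, the 15 lowest ratios, the 10 highest means, those next to each limit and the 5 largest differences each way among the other libraries. Further members, related genes and overlapping rows were named after their values were seen. Depth came from 15 to 27 olfactory receptor rows per library whose FPKM were those of 1 read. Length, GC content and coding sequence came from GENCODE M21 by symbol (1249 of 1260 rows at the floor), taking the coding transcript with the longest coding sequence, and promoters from RefSeq. Alternatives were 3 scalings, a lowess trend (span 0.3) on length and GC content, and other floors, ratios, references, names and pseudocounts. The steps were checked on simulated data. Python 3.11.15 was used with pandas 2.3.3, biopython 1.88, matplotlib 3.10.9, statsmodels 0.14.6, numpy 2.4.6 and scipy 1.17.1.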

Additional observations from a re-analysis of the deposited data

Results flagged for a closer look

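24 of the 115 genes (20.9%) had less FPKM in the mutant than in the wild type at E16.5 and more at E18.5, and for this change of direction between the stages they are listed. Of all rows at the floor, 39.6% were lower in the mutant at E16.5 and 26.8% changed direction in this way. The E18.5 direction was fixed by the way the genes were chosen, and the difference between the stages was not tested. At E16.5 the lowest log2 ratio was −0.29 (*Tppp3*) and none of the 24 reached 1.5-fold.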

How the results depend on the processing

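No paired analysis was possible because each genotype and stage had 1 library and no test was run. The 115 members (9.13% of rows at the floor) became 43 (3.78%) with library sums made equal, 53 (4.15%) with the median log2 ratio set to 0 and 55 (4.30%) with upper quartiles made equal. 14 remained once a smooth trend on length and GC content had been removed, a step that *Hbb-b1* and *ENSMUSG00000074747* could not enter. Floors of 20, 80 and 1 FPKM gave 293, 46 and 1454 members, the last 11.3% of rows. A ratio of at most 0.67 gave 347 (27.5%) and of at most 0.33 gave 23 (1.83%). The median of the 3 others as the reference gave 11.7% of rows, and leaving out no name gave 199 members (12.5%). The median log2 ratios of E18.5 wild type to wild type and mutant at E16.5 and to the E18.5 mutant were −1.03, −1.04 and −0.92 with equal sums, −0.98, −1.09 and −1.05 with the median set to 0, −1.02, −1.14 and −1.08 with equal upper quartiles, and −0.60, −0.68 and −0.68 after the trend. Among the other libraries, E16.5 *Tbx18* GFP/GFP over E16.5 wild type turned from 0.07 to −0.034 with equal sums and was 0.059 with the median set to 0 and 0.042 after the trend. E18.5 *Tbx18* GFP/GFP over E16.5 wild type turned from 0.03 to −0.099 with equal sums and was 0.073 with the median set to 0, 0.065 with equal upper quartiles and 0.072 after the trend. E18.5 over E16.5 *Tbx18* GFP/GFP turned from −0.06 to 0.030 after the trend and was −0.0096 with the median set to 0. The 4 and 2 members 1.5-fold apart became 2 and 1 with equal sums, and 0 at 2.0-fold or without the erythroid genes, an alternative chosen after seeing the data. The median GC content of members was 54.1% at 0.67, 57.6% at 0.33 and 55.3% with no name left out, and their median length 1732, 1183 and 2218 bases at floors of 20, 80 and 1 FPKM, 1781 at 0.67 and 1095 with no name left out. The causes were not tested. With 1 pool per group, depth limits only counting error.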
